A study of Mus musculus with 8 samples.

Results

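Coagulation runs as a cascade of proteases and cofactors that ends in thrombin and fibrin, and thrombin also acts on cells through receptors that it cuts. Expression of 9 genes of this system, of 18193 genes measured, was examined in leukaemic progenitors and their normal counterparts. The genes encode the factors VII (F7) and X (F10), tissue factor (F3), factor V (F5), the A chain of factor XIII (F13a1), the inhibitor Tfpi, thrombomodulin (Thbd) and the thrombin receptors F2r and F2rl2. Probe sets were taken where the platform annotation gave exactly 1 of these symbols, which left 17 of 45037 probe sets. A further listed receptor, F2rl1, was not analysed here. The list was chosen from this same contrast, with values of L-GMPs against GMPs known, so what follows for the 9 genes is a description and supports no claim about the system.

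RNA was hybridised to 8 arrays. L-GMPs were 4 samples sorted from the bone marrow of mice with the leukaemia labelled HoxA9+Meis1 AML, named for a pair of homeobox genes, and GMPs were 4 samples sorted from normal mouse marrow. GMP usually stands for granulocyte-macrophage progenitor. Age, strain, sort markers and the way the leukaemia was made are not stated in the labels, and nothing says that separate animals were used, so every p-value speaks to array-to-array spread alone, a spread that could be technical. Values are log2 of the intensities that the authors made with RMA, which corrects background, brings arrays to a common scale and joins the probes of each set into 1 value. A difference is L-GMP minus GMP on that scale, with the standard error (SE) of a limma fit. A gene counts as past the threshold at a Benjamini-Hochberg adjusted p of 0.05 over all 18193 genes. Of these, 12.1% passed, 4.78% higher and 7.27% lower in L-GMPs, and the groups did not overlap in 18.2%. Scaling moves this split. Higher genes made up 39.7% of the calls as deposited, 70.1% once arrays were centred on their medians and 49.5% with quantile normalization, while the median difference of all genes was 0.01, 0.15 and 0.04. On L-GMP replicate B the mean correlation with its own group was lowest (0.9845, against 0.9871 to 0.9918 elsewhere). On GMP replicate D the 3' minus 5' difference of the Gapdh control probe sets was 2.74, against 1.24 to 1.76 on the other arrays. In bulk samples, fewer cells of a type and less RNA per cell cannot be told apart.

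The cascade starts when factor VII meets tissue factor, a membrane protein that blood cells normally do not expose. The complex activates factor X, which with its cofactor, factor V, makes thrombin. Factor XIII then crosslinks fibrin. Tfpi blocks the first steps, and thrombomodulin turns thrombin towards activating the anticoagulant protein C. Factors VII and X of plasma come from the liver, although macrophages can make them, and the A chain of factor XIII is abundant in monocytes, macrophages and platelets. F2r encodes PAR1, the main thrombin receptor of many cells. F2rl2 encodes PAR3, which in mouse platelets helps thrombin to act on PAR4.

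The sequences before the starts of the 4 genes with the largest differences are shown because 3 of these genes rose and F2r fell, and because F7 and F10 lie next to each other. They are the 250 bases before the start, from RefSeq on GRCm38.p6, on the strand of the gene. F7 lies at chr8:13025784-13026033 (+), F10 at chr8:13037058-13037307 (+), F13a1 at chr13:37050245-37050494 (-) and F2r at chr13:95618467-95618716 (-). The F7 window precedes the transcript start that the sequence table uses, and it lies inside the span of the F7 gene, which begins at 13025506 in the gene table. Capitals mark matches to a searched motif on either strand.
F7: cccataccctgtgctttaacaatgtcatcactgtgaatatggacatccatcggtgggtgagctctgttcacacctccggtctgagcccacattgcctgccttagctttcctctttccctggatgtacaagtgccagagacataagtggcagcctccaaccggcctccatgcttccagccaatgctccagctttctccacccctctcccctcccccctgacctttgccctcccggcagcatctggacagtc
F10: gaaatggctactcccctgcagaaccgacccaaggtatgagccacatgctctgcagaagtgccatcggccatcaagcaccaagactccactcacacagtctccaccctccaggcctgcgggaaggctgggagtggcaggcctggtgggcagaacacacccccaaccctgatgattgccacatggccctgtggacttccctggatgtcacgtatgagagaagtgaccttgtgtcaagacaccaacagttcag
F13a1: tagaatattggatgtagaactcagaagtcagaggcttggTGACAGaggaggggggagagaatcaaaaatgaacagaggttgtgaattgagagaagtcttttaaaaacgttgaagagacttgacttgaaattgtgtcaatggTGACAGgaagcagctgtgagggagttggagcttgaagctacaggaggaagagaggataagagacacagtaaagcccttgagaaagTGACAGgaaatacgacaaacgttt
F2r: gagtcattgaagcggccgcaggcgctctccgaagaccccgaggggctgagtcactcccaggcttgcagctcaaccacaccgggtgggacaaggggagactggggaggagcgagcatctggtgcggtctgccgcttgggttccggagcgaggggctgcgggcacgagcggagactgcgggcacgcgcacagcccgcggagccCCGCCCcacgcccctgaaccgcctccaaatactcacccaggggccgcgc

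The motifs searched, on both strands, were TGACAG (bound by MEIS proteins), TGATTTAT (PBX-HOX), CACGTG (E-box), GAGGAAGT (PU.1), TTGCNNAA (C/EBP) and GGGCGG (GC box). They were chosen with earlier results of these data known. Of all 32851 windows of this length, 15.9% held TGACAG, 0.837% TGATTTAT, 6.02% CACGTG, 2.44% GAGGAAGT, 9.56% TTGCNNAA and 32.7% GGGCGG. The F13a1 window held 3 copies of TGACAG, which begin 211, 109 and 24 bases before the start. At least 3 copies were found in 0.122% of windows. That cut was taken from the count seen in this window, so nothing is read from the share. A second annotated start of F13a1 had no match in its window. No motif of these 6 was found in the F7 or F10 window, which says only that these letters are not there, and the bases before the outermost F7 start were not searched. The F2r window held 1 GC box and was 70.8% G and C, against a median of 52.4% over all windows. Windows were found for 8 of the 9 genes, with none listed for Thbd. Among those not printed, matches lay in windows of Tfpi (TGACAG and GC box), F3 and F5 (GC box) and F2rl2 (C/EBP). A match is a description and not a binding site.

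Of the 9 genes, F7, F10 and F13a1 were past the threshold and higher in L-GMPs, and F2r and F2rl2 were past it and lower. The other 4 (F3, F5, Tfpi and Thbd) did not pass. These 5 of 9 stand beside 12.1% of all genes, and nothing is read from that because the list was chosen from the contrast. The groups of the same 5 genes did not overlap, beside 18.2% of all genes. The median difference of the 9 genes was -0.07, against 0.01 over all genes. Of the 17 probe sets, 9 passed in the fit over all probe sets, beside 10.9% of all 45037.

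**Figure D1:**
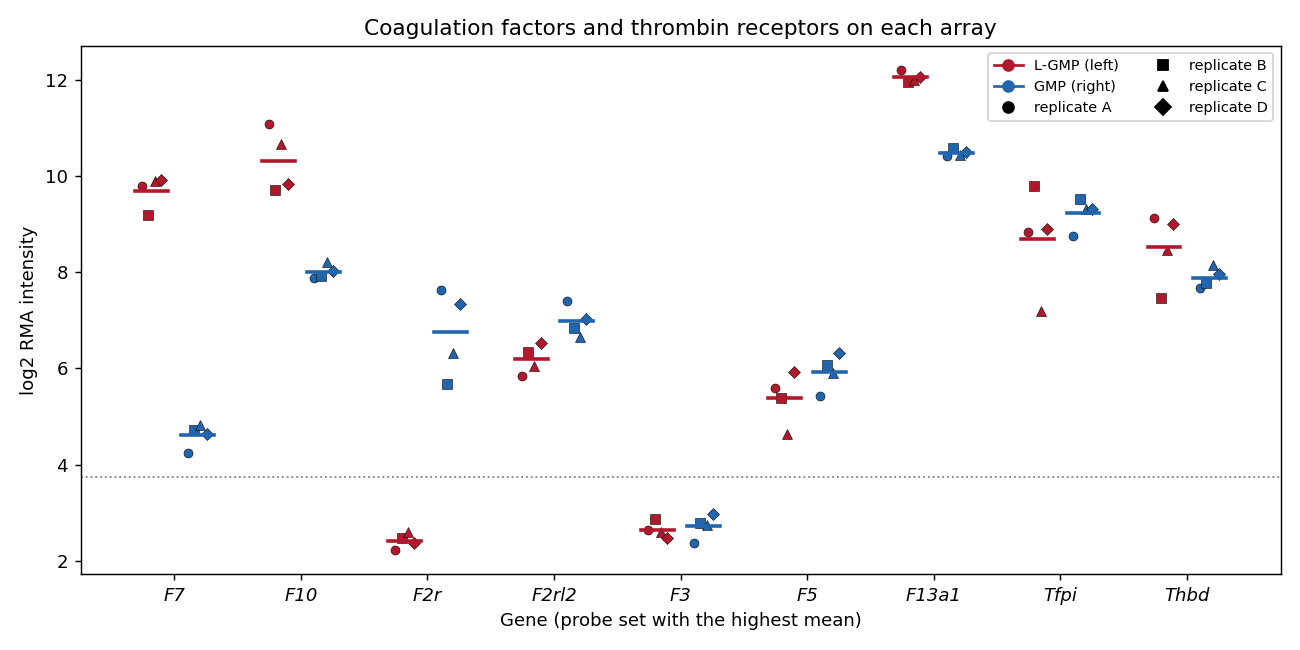
Log2 RMA intensity of each gene on each array, with L-GMPs (red, left) and GMPs (blue, right), marker shapes for the replicate letters, bars for the group mean and a dotted line at the highest lower quartile of the arrays (3.75). F7, F10 and F13a1 lie higher in all L-GMP arrays, F2r lies under the line in all L-GMP arrays, and F3 lies under it on all 8.

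Factor VII showed the largest difference of the 9 genes. F7 was at 9.79, 9.19, 9.91 and 9.92 in L-GMP replicates A to D, against 4.24, 4.72, 4.83 and 4.64 in GMP replicates A to D. All L-GMP arrays were high, and the nearest arrays of the groups were 4.36 apart. Means were 9.70 ± 0.35 in L-GMPs and 4.61 ± 0.26 in GMPs (SD, n = 4 each), a difference of 5.09 (SE 0.18, 34.1-fold), the third highest of all genes. The GMP arrays were above the lower quartile of their array in this probe set but below the array median (5.33 to 5.49). No detection calls were used, so whether F7 was detected in GMPs is open and the size of the fold is uncertain. The difference was 4.97 to 5.28 over 16 alternative settings.

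Factor X, encoded next to F7, rose as well. In its brightest probe set (1449305_at) F10 was at 11.08, 9.72, 10.66 and 9.83 in L-GMP replicates A to D, against 7.88, 7.93, 8.21 and 8.02 in GMPs. L-GMP replicates A and C were the highest and replicates B and D lower, and the lowest of them was 1.51 above the highest GMP array. The same pair of L-GMP arrays, A and C, was highest in the other F10 probe sets. The difference was 2.31 (SE 0.27, 4.97-fold) in this probe set, 2.01 (SE 0.28) in 1418993_s_at and 1.50 (SE 0.23) in 1418992_at. The GMP arrays were close to each other in the brightest probe set (SD 0.15, against 0.66 in L-GMPs, n = 4 each).

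F13a1, the fibrin-crosslinking transglutaminase chain, had the smallest spread of the genes that passed. It was at 12.21, 11.95, 12.01 and 12.07 in L-GMPs, against 10.42, 10.58, 10.45 and 10.50 in GMPs. The L-GMP arrays all lay at least 1.37 above the GMP arrays. The difference was 1.57 (SE 0.10, 2.98-fold), and 1.52 to 1.71 over 16 alternatives.

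Markers of other cell types were read beside these rises. Of 11 measured markers of monocytes and macrophages, 5 were past the threshold and higher in L-GMPs, none was lower, and their summed linear intensity was 6570 to 8900 in L-GMPs, against 4348 to 5060 in GMPs. None of the 11 was below the lower quartile on every array, but Mertk and Itgam lay near it (quartiles 3.65 to 3.75). Their means in L-GMPs and GMPs were 3.79 and 3.61 for Mertk, and 3.93 and 3.89 for Itgam. Lyz2, lysozyme, the brightest of the 11, rose by 0.66 (SE 0.11, adjusted p = 0.00283 by limma). Cd68, a lysosomal protein of macrophages, was the marker with the largest rise and is named here outside the rule. It rose by 2.48 (SE 0.18, adjusted p = 9.92e-06). The 6 that did not pass were Cd14 (difference 0.99), Mertk (0.18), Marco (0.09), Itgam (0.04), Fcgr1 (-0.23) and Csf1r (-0.24). The sum of the 11 was highest on L-GMP replicates C (8900) and A (8300), which were also the highest in F10. It was lower on D (7296) and B (6570). Csf1r, which did not pass, was at 10.34, 9.17, 11.11 and 10.32 on L-GMP replicates A to D and adds much to these differences. From low to high the L-GMP arrays ran B, A, C, D in F7 and B, C, D, A in F13a1. Of 8 measured hepatocyte markers, none passed, and their sum was 281 to 356 in L-GMPs and 261 to 328 in GMPs. Apoa1, an apolipoprotein and the brightest of these, had a difference of 0.18 (adjusted p = 0.425). Of 10 measured GMP and promyelocyte markers, 5 fell and none rose. Their sum was 26150 to 30560 in L-GMPs and 37636 to 39776 in GMPs, and Mpo and Ctsg make up much of it. Mpo, myeloperoxidase and the brightest of the 10, fell by 0.39 (adjusted p = 0.0195). It was past the threshold in 11 of 16 alternatives, and the difference was -0.25 after median centring. The others that fell were Elane (-1.75), Csf3r (-1.16), Kit (-0.96) and Prtn3 (-0.84), with Csf3r and Kit named outside the rule. The part of any of these markers in the rises was not tested.

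The initiator and the cofactor did not pass the threshold. Tissue factor, F3, was at 2.64, 2.86, 2.59 and 2.48 in L-GMPs, against 2.36, 2.79, 2.74 and 2.97 in GMPs. All 8 arrays were below their lower quartile, so F3 could not be told from the dimmest probe sets in either group. The difference was -0.07 (SE 0.14). F5, factor V, was at 5.59, 5.39, 4.63 and 5.92 in L-GMPs, against 5.42, 6.08, 5.91 and 6.33 in GMPs. The groups overlapped, with L-GMP replicate C lowest in both F5 probe sets. The differences were -0.55 (SE 0.27) and -0.42 (SE 0.24), neither past the threshold, and the larger was -0.30 without L-GMP replicate C.

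The brake on the cascade, Tfpi, varied more among L-GMP arrays than between groups. Its brightest probe set was at 8.84, 9.80, 7.20 and 8.91 in L-GMP replicates A to D, against 8.75, 9.52, 9.32 and 9.32 in GMPs. L-GMP replicate B was highest and replicate C lowest in each of the 4 Tfpi probe sets. The SD was 1.03 to 1.32 in L-GMPs and 0.16 to 0.33 in GMPs over these probe sets (n = 4 each). Differences were -0.70 to -0.17 and none passed. Without L-GMP replicate C the difference in the brightest probe set was -0.05, and without L-GMP replicate B it was -0.91, neither past the threshold. Over all the 17 probe sets, 12 had a larger SD in L-GMPs than in GMPs, and 51.1% of all probe sets did.

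Thbd, thrombomodulin, was at 9.13, 7.47, 8.47 and 9.0 in L-GMPs, against 7.67, 7.78, 8.15 and 7.96 in GMPs. Replicates A, C and D of the L-GMPs were above every GMP array and replicate B was below every one. The difference was 0.63 (SE 0.31), not past the threshold. Leaving out L-GMP replicate B gave 0.98, and leaving out GMP replicate D as well gave 1.01, and the gene was past the threshold in both. Thrombomodulin and Tfpi are known products of endothelial cells. Of 10 measured endothelial markers, 1 was higher and 4 lower in L-GMPs, with sums of 500 to 628 in L-GMPs and 488 to 544 in GMPs, and Kdr was below the lower quartile on all arrays. Pecam1, an adhesion protein also of myeloid cells, is the brightest of these and the one that rose, by 0.75 (adjusted p = 0.00272), and it makes up much of the sums. The 4 that fell were Tek, an angiopoietin receptor (difference -2.48, adjusted p = 1.07e-05), its relative Tie1 (-2.01, adjusted p = 1.73e-05), Emcn (-0.71, adjusted p = 0.0162) and Eng (-0.48, adjusted p = 0.0444). The part of these markers in Thbd and Tfpi was not tested.

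**Figure D2:**
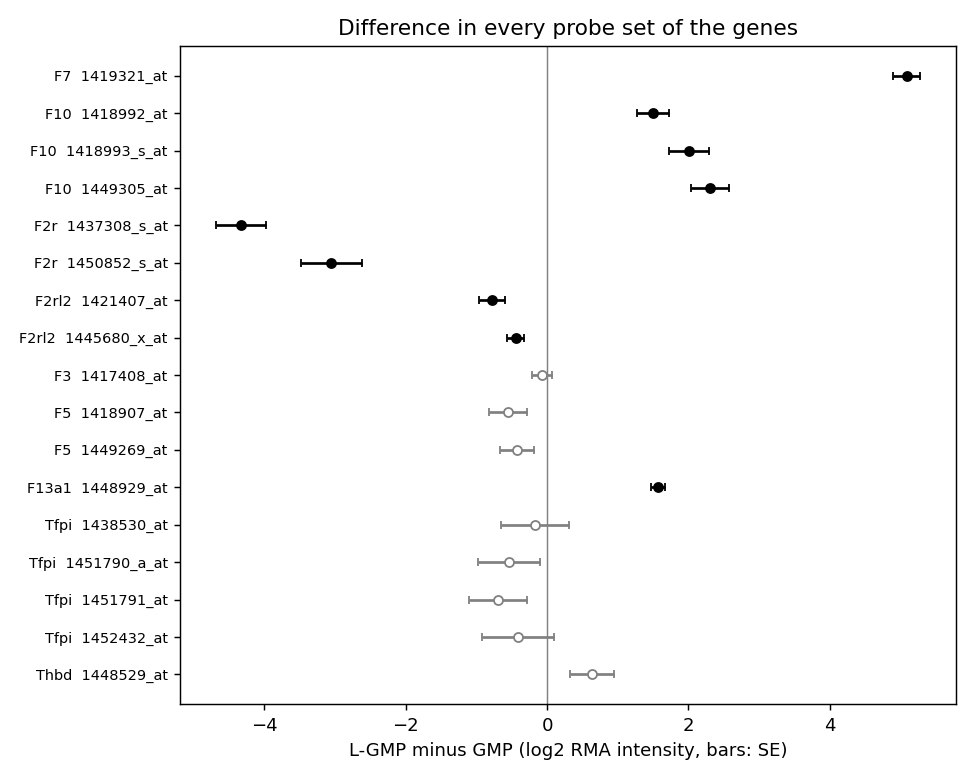
Difference L-GMP minus GMP (log2 RMA intensity) with its SE for each of the 17 probe sets, filled where the probe set was past the threshold in the fit over all probe sets. The F10, F2r, F2rl2, F5 and Tfpi probe sets each lie on a single side of 0.

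The thrombin receptors F2r and F2rl2 were lower, while F2rl3, the gene of PAR4 and read with the lists below, had a difference of -0.07. F2r, the gene of PAR1, was at 2.22, 2.48, 2.59 and 2.36 in L-GMPs, against 7.63, 5.67, 6.33 and 7.35 in GMPs. Every L-GMP array was below the 10th percentile of its own array, and the GMP arrays differed among themselves, with replicate B lowest and A highest. Means were 2.41 ± 0.16 in L-GMPs and 6.75 ± 0.91 in GMPs (SD, n = 4 each). The difference was -4.33 (SE 0.36), and its size is uncertain because the L-GMP values lie at the floor of the array. The other F2r probe set, 1450852_s_at, was at 2.24 to 2.61 in L-GMPs and 4.07 to 6.75 in GMPs, with a difference of -3.05 (SE 0.43). By Affymetrix's naming, both are probe sets whose probes can match more than 1 transcript.

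F2rl2, the gene of PAR3, was lower by less. It was at 5.85, 6.34, 6.06 and 6.54 in L-GMPs, against 7.40, 6.85, 6.66 and 7.02 in GMPs. The groups were only 0.11 apart at their nearest arrays. The difference was -0.78 (SE 0.19), and -0.44 (SE 0.12) in the dim probe set 1445680_x_at, which lay below the lower quartile on all arrays. The F2rl2 call was lost without L-GMP replicate A (-0.67), L-GMP replicate C (-0.74) or GMP replicate D (-0.77), and without the L-GMP B and GMP D arrays (-0.82).

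Both receptors are known from platelets in 1 species or another, PAR1 in human and PAR3 in mouse. Of 8 measured megakaryocyte and platelet markers, 3 were past the threshold and lower in L-GMPs and none was higher. Their summed intensity was 678, 768, 1274 and 1065 in L-GMP replicates A to D, against 2801, 792, 1303 and 1592 in GMP replicates A to D, so the sums overlapped. The GMP arrays ran B, C, D, A from low to high in this sum and in the brighter F2r probe set, and B, C, A, D in the other F2r probe set. Itgb3, an integrin chain and the brightest of the list, makes up much of the sum and had a difference of 0.36 (adjusted p = 0.494). The 3 markers that fell, named here whatever the rule, did not overlap between groups. Pf4, a platelet chemokine, was at 2.90 to 4.55 in L-GMPs, against 7.20 to 10.40 in GMPs, and fell by 5.10 (SE 0.57, adjusted p = 0.000229). Itga2b, the platelet integrin chain, fell by 1.68 (SE 0.19, adjusted p = 0.000225), and Vwf, given with the clotting factors, was the other. Gp6 was below the lower quartile on all arrays. Of 7 eosinophil, basophil and mast cell markers, 6 fell and none rose, with a median difference of -3.51. Their sum was 479 to 1263 in L-GMPs and 3822 to 9763 in GMPs, highest on GMP replicate B. Mcpt8, a basophil protease and the brightest of these, was the marker that did not pass, with a difference of -0.46 (adjusted p = 0.253). The 6 that fell were Prg2 (difference -5.20), Ms4a2 (-4.95), Epx (-4.77), Fcer1a (-3.51), Cpa3 (-3.24) and Hdc (-3.01), with adjusted p between 1.52e-07 for Ms4a2 and 0.0441 for Cpa3. Prg2 and Epx encode eosinophil granule proteins, and Ms4a2 and Fcer1a chains of the IgE receptor. The part of these cells in the fall of F2r was not tested.

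Other genes of the system were read in 7 lists, which hold 88 genes apart from the 9 above. Of 82 measured, 12 were past the threshold and higher in L-GMPs and 8 lower, 24.4% in all beside 12.1% of all genes. The lists were chosen with earlier results of these data known, so nothing is read from that share. The median difference was 0.08, against 0.01 over all genes. After centring each array on its median the counts were 21 higher and 5 lower, so the direction of small changes rests on the scaling. The higher count was 7 without L-GMP replicate C, GMP replicate B or GMP replicate C.

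**Figure D3:**
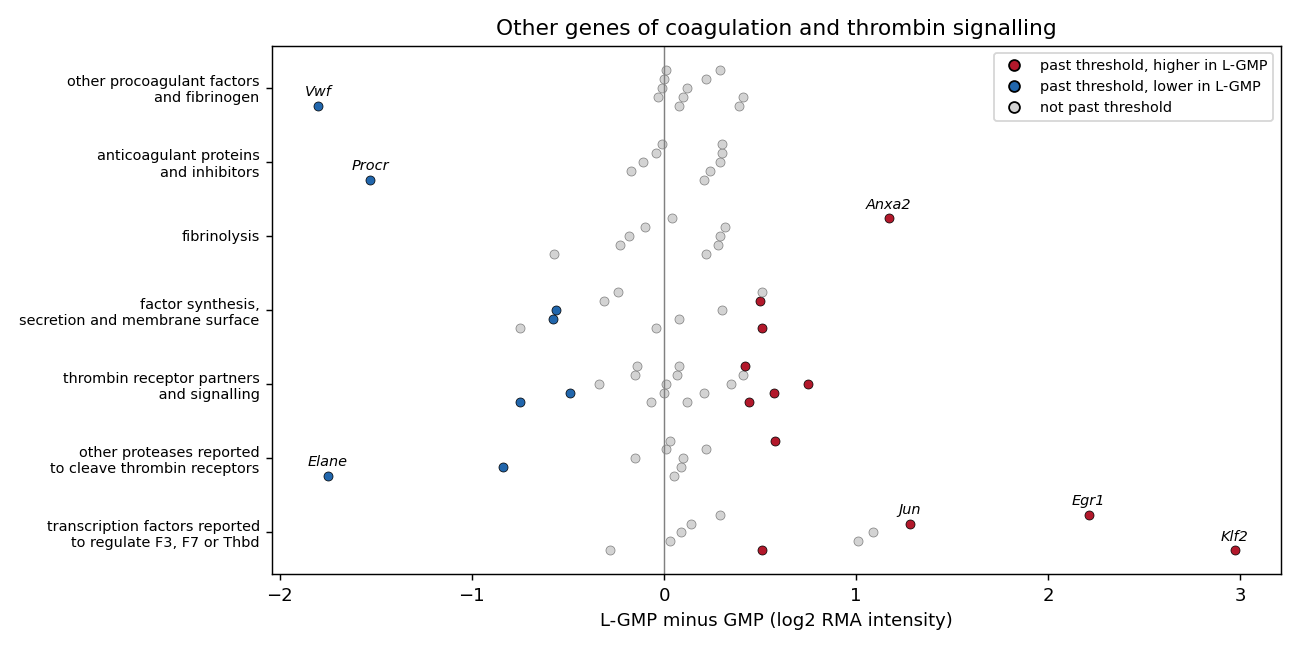
Difference L-GMP minus GMP (log2 RMA intensity) of each measured gene of the 7 lists, red where past the threshold and higher, blue where past it and lower, grey where not past it. Names are given to genes past the threshold that differ by more than 0.9: Vwf, Procr and Elane are lower, and Anxa2, Jun, Egr1 and Klf2 higher. Klf4 (1.09) and Fos (1.01) were not past the threshold and are not named.

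Few other clotting factors passed the threshold. Of 12 measured procoagulant factors and fibrinogen chains outside the 9 genes, none rose and only Vwf fell, and 6 (F2, F8, F9, F11, F13b and Fga) were below the lower quartile on every array. After median centring 2 genes of this list rose, and 1 rose with probe sets averaged or without L-GMP replicate B. Vwf, the von Willebrand factor that carries platelets to injured vessels, was at 4.29 to 4.78 in L-GMPs, against 5.11 to 7.25 in GMPs. It fell by 1.80 (SE 0.38, adjusted p = 0.0112 by limma). Its GMP arrays ran in the order of the brighter F2r probe set, with B lowest and A highest, while D was highest in the other F2r probe set.

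Among 10 anticoagulant proteins and inhibitors, only Procr passed, and it fell. Procr, the endothelial protein C receptor, which presents protein C to the thrombin-thrombomodulin complex and can also bind factor VII, was at 4.45, 4.74, 4.58 and 3.96 in L-GMPs, against 6.03, 6.04, 5.73 and 6.07 in GMPs. All L-GMP arrays were lower, and the gene fell by 1.53 (SE 0.16, 2.89-fold, adjusted p = 0.000163). Among 10 fibrinolysis genes, only Anxa2 passed, and it rose. Annexin A2 binds plasminogen and its activator at the cell surface. It was at 10.71 to 11.11 in L-GMPs, against 9.54 to 9.83 in GMPs, higher by 1.17 (SE 0.12, adjusted p = 9.68e-05), and by 0.48 with the probe sets of the gene averaged. After median centring 4 fibrinolysis genes and 2 anticoagulant genes rose, and 2 fibrinolysis genes rose without GMP replicate A or C.

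Clotting factors depend on helper enzymes and on membranes. Of 11 genes for synthesis, secretion and membrane surface, 2 rose and 2 fell. Ano6, the scramblase that exposes phosphatidylserine on which factor complexes assemble, rose by 0.51 (SE 0.10, adjusted p = 0.00821), and Tpst1, a tyrosine sulfotransferase, by 0.50 (SE 0.11, adjusted p = 0.0153). Vkorc1, the vitamin K reductase needed to make active factors VII and X, fell by 0.58 (SE 0.13, adjusted p = 0.0142). Mcfd2, part of the cargo receptor that carries factor V out of the endoplasmic reticulum, fell by 0.56 (SE 0.14, adjusted p = 0.0276). The Vkorc1 and Mcfd2 calls were lost after centring on the median. Mcfd2 stayed past the threshold in 8 of 16 alternatives, and its call was lost without L-GMP replicate A, B or C or GMP replicate B, C or D.

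Of 18 receptor partners and signalling genes, 4 rose and 2 fell. Arhgef11, which receives signals of the G proteins below PAR1, rose by 0.75 (SE 0.12, adjusted p = 0.00314), and its relative Arhgef12 by 0.57 (SE 0.16, adjusted p = 0.0468). Arrb1, an arrestin that ends or redirects receptor signals, fell by 0.75 (SE 0.09, adjusted p = 0.000317). Gp5, a platelet glycoprotein that thrombin cuts, fell by 0.49 (SE 0.13, adjusted p = 0.0312), with a mean of 3.55 in L-GMPs and 4.04 in GMPs. F2rl3, the gene of PAR4 and named here outside the rule, was at 5.11 to 5.45 in L-GMPs and 5.04 to 5.56 in GMPs, with a difference of -0.07 (SE 0.13, adjusted p = 0.773). With probe sets averaged the Arhgef12 difference was 0.04 (adjusted p = 0.845) and that of Arhgef11 was 0.46. Arhgef12 stayed past the threshold in 7 of 16 alternatives and Gp5 in 6 of 14. Only 1 gene of this list rose when the L-GMP C, L-GMP D, GMP B, GMP C or GMP D array was omitted, and 2 rose without L-GMP replicate B or GMP replicate A. Only 1 fell without any single array other than L-GMP replicate B and GMP replicate C.

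Among 10 other proteases that are reported to cut receptors of the PAR family (thrombin receptors or their relatives), St14 rose and Elane and Prtn3 fell. Elane, neutrophil elastase, was at 11.26, 11.24, 9.73 and 11.97 in L-GMPs, against 12.86, 12.62, 12.66 and 13.03 in GMPs. It fell by 1.75 (SE 0.37, 3.35-fold, adjusted p = 0.0127), a call lost under the trended robust prior and without the L-GMP B and GMP D arrays. Prtn3, proteinase 3, fell by 0.84 (SE 0.18, adjusted p = 0.0129), also lost without those arrays. St14, the membrane protease matriptase, rose by 0.58 (SE 0.14, adjusted p = 0.0261) and stayed past the threshold in 9 of 16 alternatives, but not without L-GMP replicate B or C or GMP replicate B, C or D.

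Of 11 transcription factors reported to act on F3, F7 or Thbd, 4 rose and none fell, with a median difference of 0.51. Klf2, a zinc finger factor known to raise Thbd and restrain F3 in endothelium, was at 10.08, 9.61, 10.31 and 10.85 in L-GMPs, against 6.20, 6.69, 7.92 and 8.19 in GMPs. It rose by 2.97 (SE 0.42, 7.81-fold, adjusted p = 0.00115). Egr1, an early response factor known to act on F3, rose by 2.21 (SE 0.55, adjusted p = 0.0251), a call lost under the trended robust prior and without L-GMP replicate C, GMP replicate B or GMP replicate C. Jun rose by 1.28 (SE 0.23, adjusted p = 0.00525) and Mef2a by 0.51 (SE 0.13, adjusted p = 0.0266, past the threshold in 9 of 16 alternatives, and 0.15 with probe sets averaged). Without GMP replicate C, 2 of the list rose. Whether these factors bear on the coagulation genes was not tested.

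**Figure D4:**
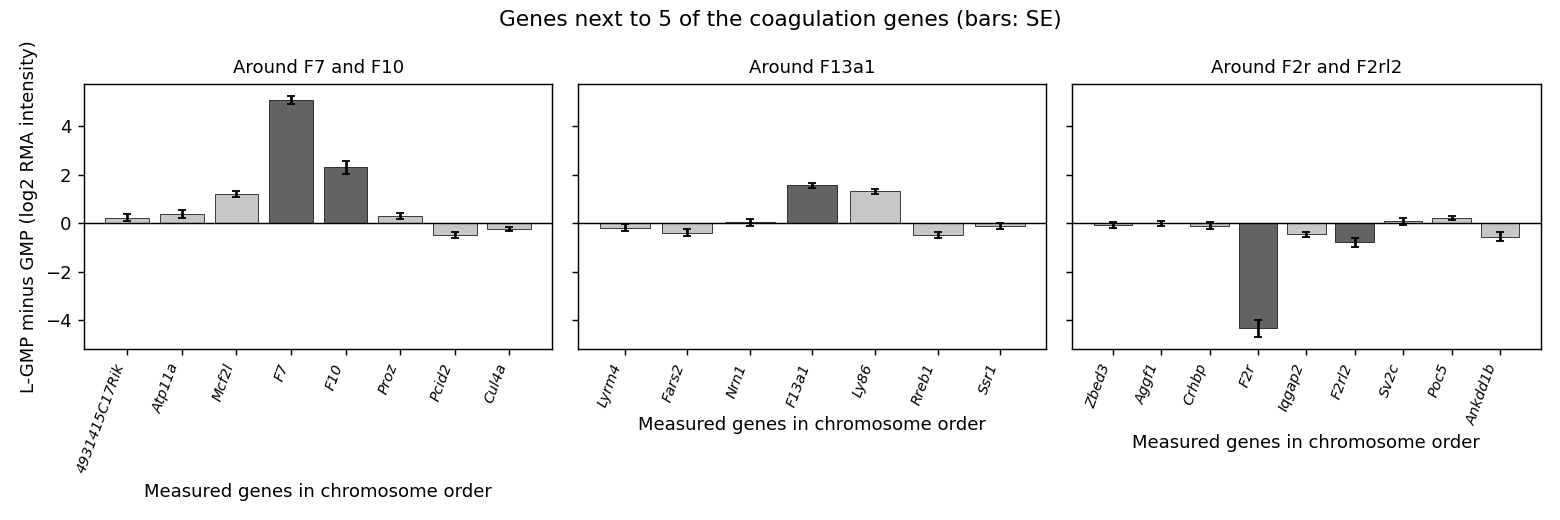
Difference L-GMP minus GMP (log2 RMA intensity, bars start at 0, error bars are SE) of F7 with F10, F13a1, and F2r with F2rl2 (dark) and of the nearest measured genes (light) in chromosome order. Mcf2l beside F7 and Ly86 beside F13a1 are higher, by 1.21 and 1.32.

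The 3 nearest measured genes on each side of each of the 9 genes, by the RefSeq order on GRCm38.p6, came to 43 genes. Of these, 3 were past the threshold and higher and 7 lower, 23.3% in all beside 12.1% of all genes. Median centring turned this balance to 8 higher and 4 lower. Mcf2l, the next gene before F7, was at 7.10, 7.08, 7.11 and 7.15 in L-GMPs, against 5.73, 6.13, 5.96 and 5.80 in GMPs. It rose by 1.21 (SE 0.11, 2.31-fold, adjusted p = 4.5e-05), and kept its call in 16 of 16 alternatives. On the other side, Proz, the gene of protein Z, had a difference of 0.30 (SE 0.11, adjusted p = 0.0927), and Pcid2 fell by 0.47 (SE 0.12, adjusted p = 0.0245), past the threshold in 10 of 16 alternatives. In chromosome order the differences in the brightest probe set of each gene ran 1.21 in Mcf2l, 5.09 in F7, 2.31 in F10 and 0.30 in Proz. The other, dimmer Proz probe set had a difference of -0.04 (SE 0.18) and its groups overlapped, so a rise of Proz was not seen in both.

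Ly86, the next gene after F13a1 and a myeloid partner of the receptor CD180, was at 10.94, 10.95, 11.14 and 10.95 in L-GMPs, against 9.73, 9.83, 9.63 and 9.52 in GMPs. It rose by 1.32 (SE 0.10, 2.49-fold, adjusted p = 1.69e-05), again in 16 of 16 alternatives, and it is also in the monocyte list above. Rreb1, beyond it, fell by 0.48 (SE 0.13, adjusted p = 0.034), in 7 of 16 alternatives and with a difference of -0.30 where probe sets were averaged. F2rl2 lies within the span of Iqgap2, which fell by 0.45 (SE 0.11, adjusted p = 0.0254) and was past the threshold in 9 of 16 alternatives. The other neighbours of F2r and F2rl2 did not pass. Next to genes that did not pass themselves, Arhgap29 and Abcd3 by F3 fell by 1.67 (SE 0.20, adjusted p = 0.000411) and 0.91 (SE 0.14, adjusted p = 0.00165). Arhgap29 was at 3.10 to 3.47 in L-GMPs, under the lower quartile of each L-GMP array, so its size is uncertain, and it was -0.65 with probe sets averaged. Ccdc181 by F5 fell by 0.66 (SE 0.14, adjusted p = 0.0128), and Calcrl by Tfpi by 0.98 (SE 0.25, adjusted p = 0.0271), in 13 of 16 alternatives and with a difference of -0.42 where probe sets were averaged. Sstr4, by Thbd, rose by 0.80 (SE 0.23, adjusted p = 0.0471) and was past the threshold in 8 of 15 alternatives. The lower count was 4 without L-GMP replicate A, L-GMP replicate C, GMP replicate B or GMP replicate D.

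The genes whose pattern was most like F7, by Pearson r over the 8 arrays, were Iffo1 (0.996), Klhl41 (0.996) and F13a1 (0.995). Iffo1 was at 8.88 to 9.20 in L-GMPs and 6.88 to 6.94 in GMPs, and Klhl41 at 7.74 to 8.22 in L-GMPs and 2.88 to 3.40 in GMPs. Those most like F2r were Pde5a (0.995), Sall2 (0.994) and Dipk1b (0.991). Pde5a, a cyclic GMP phosphodiesterase known from platelets and smooth muscle, was at 5.96, 4.63, 5.01 and 5.50 in GMP replicates A to D. It was at 2.84 to 3.20 in L-GMPs. Its GMP arrays ran in the order of the brighter F2r probe set, as did those of Sall2 and Dipk1b. The genes were picked by r with that probe set, so nothing is read from the shared order. With 2 groups apart, such an r reads mostly the group difference and has no test.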

How the data were processed

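Total RNA of sorted cells was extracted with Trizol and column-cleaned, per the labels' protocols, and the deposited intensity values were made with RMA, per the submitters' processing notes, with no version given. They are linear, as read from the values, with 0 unused columns. The labels name sense-strand target labelling while the probe sets are those of a 3' array, so the part of each transcript that was read is uncertain. No build is named for the deposited values.

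Log2 was taken. Of 45101 probe sets, 64 controls were left out, 34945 had 1 symbol, 932 several and 9160 none. For each of 18193 genes the brightest probe set, by its mean on all 8 arrays, was used. L-GMPs were set against GMPs with limma 3.58.1 (R 4.3.3; lmFit, eBayes, group alone, 2-sided, Benjamini-Hochberg at 0.05), and all 45037 probe sets in a second fit. The fit was tested on simulated data. No detection calls or batches were used, and the number of arrays limits precision.

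The genes, lists, motifs and naming rule were chosen with earlier results of these data known. The rule names, per list, up to 4 genes with the largest change among those past the threshold whose groups do not overlap, neighbours past the threshold, the brightest gene of each cell type list, and the 3 genes most like the largest rise and the largest fall. Same-letter arrays of the groups correlated only weakly in their deviations (r -0.067 to 0.112), which cannot exclude pairing. Letters were not treated as pairs. Alternatives were 2 scalings, the dimmest 25% or 50% of genes left out, probe sets averaged per gene, a trended robust prior, a replicate block and each array left out. Omitting the L-GMP B and GMP D arrays at once was an alternative chosen after seeing the data.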

Additional observations from a re-analysis of the deposited data

Results flagged for a closer look

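In each group of 4 arrays the highest or lowest value was set against the others by Dixon's ratio at its critical value for 4 samples. The 102 groups were of every probe set of the 9 genes, and of the genes named by rule from the lists and neighbours. Genes named by likeness alone were not checked. The critical value was exceeded in 7, and chance alone gives about 1 in 20. No probe set of the 9 genes was among them. Ly86 stood high on L-GMP replicate C at 11.14, with the other L-GMP arrays at 10.94 to 10.95. Mcfd2 stood high on L-GMP replicate D at 9.21, with the others at 8.96 to 9.0. Vwf stood high on L-GMP replicate B at 4.78, with the others at 4.29 to 4.32. Vkorc1 stood low on L-GMP replicate A at 9.18 (others 9.55 to 9.57) and high on GMP replicate A at 10.30 (others 9.95 to 9.98). Procr stood low on GMP replicate C at 5.73 (others 6.03 to 6.07). St14 stood high on GMP replicate A at 7.14 (others 6.65 to 6.68).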

How the results depend on the processing

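F7, F10 and F13a1 stayed higher and past the threshold under all 16 alternatives, and F2r lower under the 15 that kept it. The count of the 9 genes higher in L-GMPs was 3, and 3 to 4 with an array left out. The count lower was 2, and 1 to 2 with an array left out. It was 1 with the dimmest 50% of genes left out, which removed F2r, and 1 without the L-GMP B and GMP D arrays. Same-letter arrays correlated at -0.067 to 0.112 in their deviations, and arrays of different letters at -0.118 to 0.106. This gives no sign of pairing by letter and cannot exclude it. With the replicate block, 1760 genes of all passed in place of 2193, and 1411 to 2388 with an array left out, the lowest without GMP replicate B and 1425 without GMP replicate D. The list genes numbered 7 to 12 higher and 6 to 8 lower with an array left out, 21 higher and 5 lower after median centring, and 5 lower without the dimmest 50% of genes. The neighbours numbered 2 to 4 higher and 4 to 7 lower with an array left out, 8 higher and 4 lower after median centring, and 4 lower without the L-GMP B and GMP D arrays. The cause of these shifts was not tested. No named difference that was past the threshold changed sign. Values near the floor (F2r, Arhgap29 and several markers in L-GMPs, and F3) have no reliable size.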

Other observations

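The L-GMP arrays did not rank alike in the 9 genes, which was noticed after the values were seen. L-GMP replicate C was lowest in each of the 4 Tfpi probe sets and in both F5 probe sets, and it was also the lowest L-GMP array in Elane (9.73, against 11.24 to 11.97 on the others) and in Prtn3 (10.45, against 10.88 to 11.43). L-GMP replicate B was lowest in F7 (9.19), F13a1 (11.95), Thbd (7.47) and 2 of the 3 F10 probe sets, and highest in Tfpi. With 4 arrays none of this was tested.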
